A study of Mus musculus with 8 samples.

Results

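The Hox genes are described here across 8 RNA sequencing libraries of NIH3T3, an immortalised fibroblast line from Swiss mouse embryos. Members were chosen by name alone: each gene whose symbol is Hoxa, Hoxb, Hoxc or Hoxd followed by a number. There were 39 such genes among 23304 gene symbols, and 20 of them had enough reads to be tested. The labels define 4 groups of 2 libraries: WT cells and ZMYND11 KO cells edited by CRISPR, each left without an agent (0 h) or given mouse IFNβ, a type I interferon, at 100 units/ml for 2 h. The labels name no clone, guide or culture, so replicate spread may be technical and the KO may be a single clone. All groups share the same line, grown in donor bovine serum, although the extraction note speaks of MEFs, primary embryonic fibroblasts.

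Hox genes encode homeodomain transcription factors and lie in 4 clusters, each on its own chromosome. Within a cluster the genes are numbered by paralogue group: low numbers (anterior genes) act towards the head and are switched on first in the embryo, and high numbers (posterior genes) act towards the tail and the limb tips. Fibroblasts keep a combination of active Hox genes that reflects the body site from which they came, so the set of active genes is read as positional identity. Polycomb complexes hold inactive Hox genes silent, trithorax proteins keep active ones on, and retinoic acid is a classical inducer of the anterior genes.

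The genotype labels were checked first. Zmynd11 encodes a reader of methylated histone H3.3. It stood at 123 and 120 CPM (read counts brought to a common scaled library size) in both WT 0 h libraries and at 137 and 131 CPM in KO 0 h. The same gene stood at 3.18 and 3.61 CPM in WT 2 h and at 3.31 and 4.69 CPM in KO 2 h. Zmynd11 thus goes against 2 of the labels, KO at 0 h and WT at 2 h, and separates the time labels instead. Ifit1, an interferon-induced gene chosen here after its values were seen, stood at 1.22 to 3.95 CPM under both WT labels and at 196 to 396 CPM under both KO labels. Both genes stand at the levels that an exchange of the labels KO 0 h and WT 2 h would give, and whether the labels were exchanged was not tested. If they were, each 2 h against 0 h value below would be one between genotypes, and each KO against WT value one between treatments. Groups are named only as labelled.

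Total gene reads were 13671013 to 21299120 per library, of which 2561 to 4421 were Hox reads. A single read was worth 0.0460 to 0.0700 CPM. The library labelled KO 0 h replicate 2 stands apart with reads in 17498 genes, where the other 7 have reads in 14847 to 15945. Of the 10 fibroblast markers 9 passed the filter on low counts. Their summed level was 39658 to 44190 CPM under the 0 h labels and 17875 to 19876 CPM under the 2 h labels, and Lum was nearly without reads. The endothelial sum was 2.41 to 5.08 CPM at 0 h and 12.2 to 14.7 CPM at 2 h, carried by Vwf, and the muscle sum was 3.07 to 3.69 and 14.98 to 17.7 CPM, carried by Des. Among the markers of other cell types, Cd3e was at 0 in all libraries and Myod1, Epcam and Sox10 were at or near 0. Other members of these lists had reads. The filter was passed by 2 of 6 epithelial, 4 of 6 leukocyte, 5 of 5 endothelial, 2 of 5 muscle and 2 of 5 neural markers. Epithelial markers summed to 3.13 to 7.62, leukocyte markers to 9.10 to 20.2 and neural markers to 0.945 to 3.54 CPM over all libraries. The part of these shifts in the Hox results was not tested, and in bulk RNA fewer cells of a type and less RNA per cell cannot be told apart.

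RefSeq promoter sequences of the GRCm38.p6 build were matched by symbol for 22 of the 39 Hox genes. A pair of genes in the Hoxd cluster is shown because one was higher under the 2 h labels in both genotypes (Hoxd10) and the other, the most abundant Hox gene, passed the test in neither (Hoxd8). A further promoter, of Hoxd4, is shown because its gene was closest to passing between the genotype labels at 0 h. Each is the 250 bases before the start site, on the plus strand, with CpG pairs in capitals.
Hoxd10 at chr2:74691641-74691890: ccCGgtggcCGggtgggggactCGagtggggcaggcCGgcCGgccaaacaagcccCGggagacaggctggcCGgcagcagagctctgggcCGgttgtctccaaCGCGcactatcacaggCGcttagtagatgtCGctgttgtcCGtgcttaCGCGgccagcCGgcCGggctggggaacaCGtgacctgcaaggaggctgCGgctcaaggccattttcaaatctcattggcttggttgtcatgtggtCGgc
Hoxd8 at chr2:74704365-74704614: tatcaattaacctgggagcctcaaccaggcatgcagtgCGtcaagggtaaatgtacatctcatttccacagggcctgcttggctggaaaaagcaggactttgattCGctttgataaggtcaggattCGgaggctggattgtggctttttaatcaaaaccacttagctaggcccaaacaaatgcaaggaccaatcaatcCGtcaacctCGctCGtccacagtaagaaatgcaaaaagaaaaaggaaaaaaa
Hoxd4 at chr2:74721728-74721977: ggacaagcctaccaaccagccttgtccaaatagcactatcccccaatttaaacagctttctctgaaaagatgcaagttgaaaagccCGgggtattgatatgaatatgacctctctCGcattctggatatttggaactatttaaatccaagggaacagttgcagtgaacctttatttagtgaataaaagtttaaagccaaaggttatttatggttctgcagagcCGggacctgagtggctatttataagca
The Hoxd10 stretch holds 20 CpG pairs, the Hoxd8 stretch 6 and the Hoxd4 stretch 3, and the median over 32851 promoters is 6. The core of the interferon-stimulated response element, GAAA repeated after 2 free bases, was searched on both strands in these 250 bases and was found in none of the 22 genes, against 2.98% of all promoters. The gamma-activated site TTCNNNGAA was found in Hoxd4 alone, starting 193 bases before the start site, against 7.02% of all promoters. The letters TATAAA were found on the strand opposite to Hoxd4, 10 bases before its start. On either strand they were also found for Hoxa10, Hoxb8 and Hoxd13, and in 12.4% of all promoters. These motif matches describe letters only. A missing match says only that these letters are not in this window.

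The active Hox genes formed a mainly anterior to central set that ended at a different number in each cluster. In the Hoxa cluster on chromosome 6, the tested genes ended at Hoxa7, while Hoxa9, Hoxa11 and Hoxa13 had no read in any library and Hoxa10 had 2 reads in all. In the Hoxc cluster on chromosome 15, Hoxc4, Hoxc5 and Hoxc6 were tested and the 6 genes from Hoxc8 to Hoxc13 were not. In the Hoxd cluster on chromosome 2, Hoxd3, Hoxd4, Hoxd8, Hoxd9 and Hoxd10 were tested, and Hoxd1, Hoxd11, Hoxd12 and Hoxd13 were not. The Hoxb cluster on chromosome 11 had Hoxb3, Hoxb4, Hoxb5, Hoxb6 and Hoxb9 above the filter, with Hoxb7 and Hoxb8 between them, and Hoxb1, Hoxb2 and Hoxb13, below it. By class, 5 of 8 anterior genes (paralogues 1 to 3), 12 of 15 central genes (4 to 8) and 3 of 16 posterior genes (9 to 13) were tested. Members that passed through the group where they are high had to differ, so counts over the tested members are not counts over the family.

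**Figure D1:**
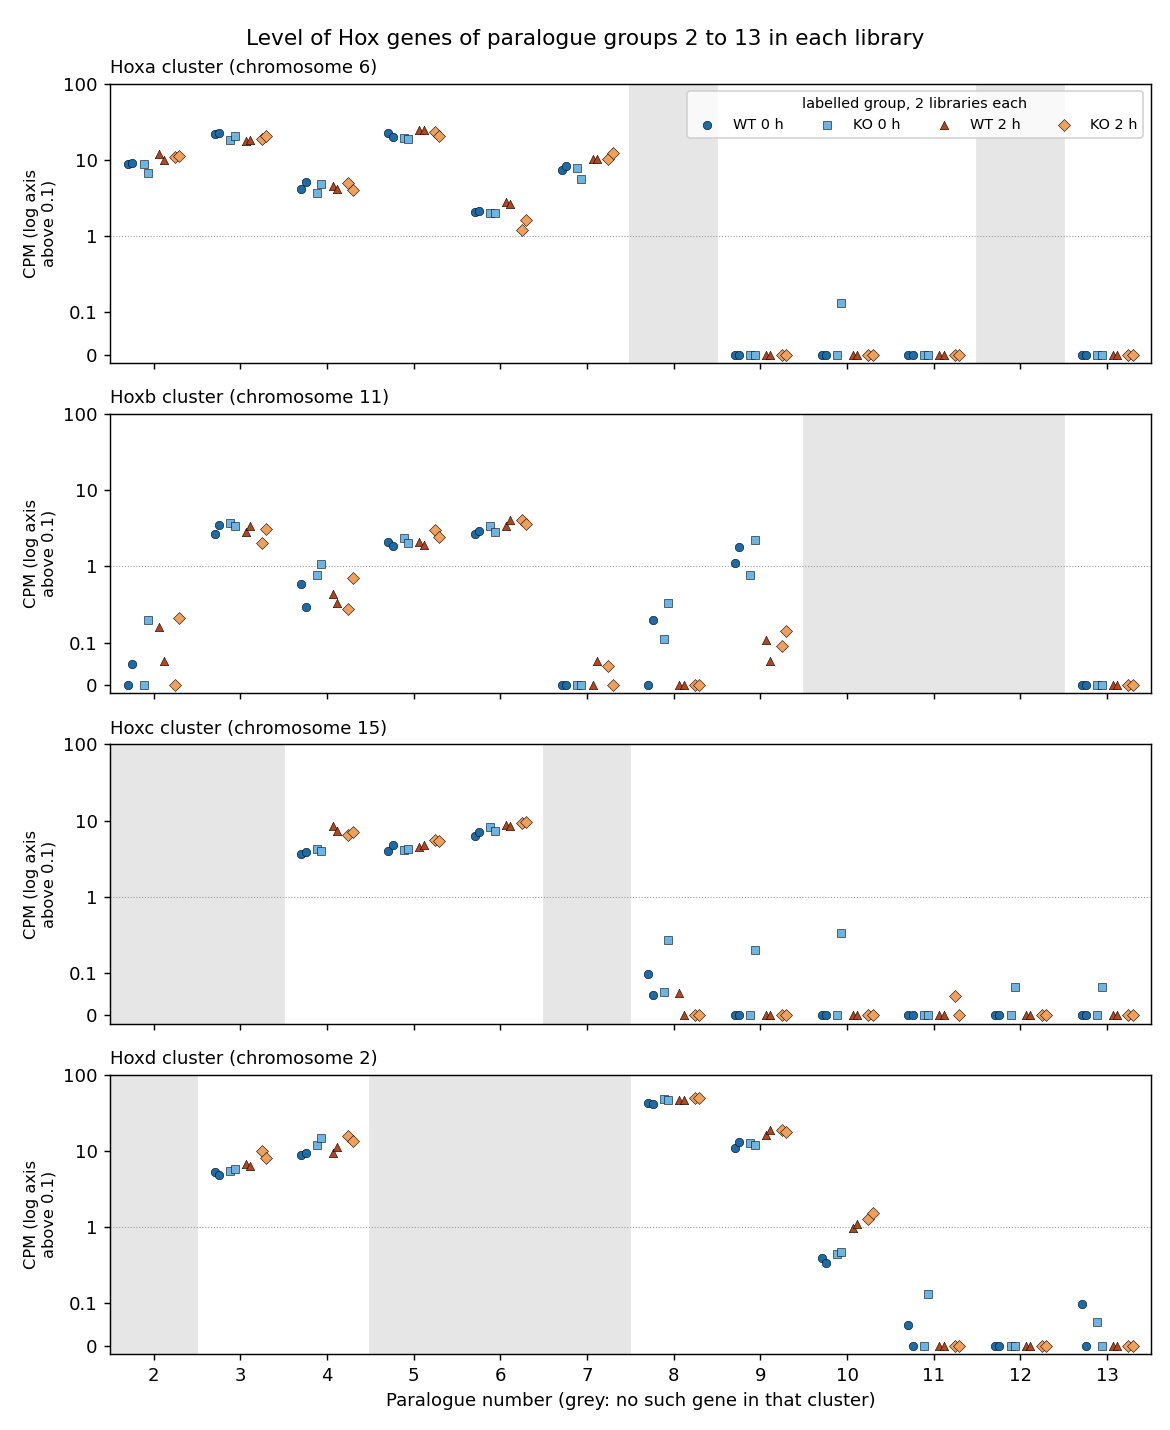
Level of the Hox genes of paralogue groups 2 to 13 (vertical axis, CPM, logarithmic above 0.1) against its paralogue number, one panel per cluster and one point per library. Hoxa stops after paralogue 7, Hoxc after 6 and Hoxd after 10, and points under the dotted line of 1 CPM include the untested genes.

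The 19 untested genes held at most 5 reads each in a library. They summed to 2 to 7 reads in 7 libraries and to 30 reads, over 10 genes, in KO 0 h replicate 2, which also has reads in the most genes. There, Hoxc9, Hoxc10, Hoxc12, Hoxc13 and Hoxa10 had 1 to 5 reads each and none elsewhere. A count of 0 allows up to 3 reads, or 0.138 to 0.210 CPM, so lower levels were not detectable at this depth, and this limit covers counting error only. Hoxa9, Hoxa11, Hoxa13, Hoxb13 and Hoxd12 had no reads in any of the 8 libraries.

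Levels can be compared between genes only per length, here per kilobase of the GENCODE M21 coding transcript, an annotation of another build than the counts. Hoxd8 was the highest at a mean of 26.4 CPM per kilobase, with a range of 23.5 to 28.6 over the 8 libraries. Hoxa5 followed at 11.4 CPM per kilobase (9.93 to 13.1), and its range overlapped no neighbour in this order. Hoxa3 (6.75 to 8.59), Hoxd9 (5.12 to 8.93), Hoxd4 (4.31 to 7.82), Hoxa2 (3.84 to 6.78), Hoxc6 (4.02 to 6.07) and Hoxa7 (2.79 to 6.10 CPM per kilobase) came next, and adjacent genes in that order overlapped over the libraries. The lowest tested genes were Hoxd10 at 0.451, Hoxb9 at 0.307 and Hoxb4 at 0.217 CPM per kilobase. In the GENCODE exons, 9.26% of Hoxd3 and 13.2% of Hoxd4 is shared between this pair, and 5.37% of Hoxc5 with Hoxc10. Reads there can be lost as ambiguous or, without strand, credited to an antisense gene, so the values of these genes are uncertain.

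By cluster, summed Hoxa levels were 62.2 to 70.6 CPM under the 0 h labels and 77.0 to 79.8 CPM under the 2 h labels. Summed Hoxc levels were 14.02 to 16.6 and 20.6 to 21.99 CPM, and Hoxb levels were 9.23 to 12.3 and 9.07 to 10.2 CPM. Hoxd sums were 68.0 and 69.0 CPM in WT 0 h, 79.4 and 80.2 in KO 0 h, 79.7 and 84.0 in WT 2 h, and 95.4 and 91.1 in KO 2 h. All 39 genes together came to 162 to 171 CPM at 0 h and 190 to 203 CPM at 2 h, so the sum over the family was higher in each library labelled 2 h. The Hoxb and Hoxd sums overlapped between the time labels, while within each genotype label the Hoxd sums did not. The sums are dominated by the abundant members and carry no test.

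The first 2 comparisons set 2 h against 0 h within each genotype label, by label the response to IFNβ. Zmynd11 itself had log2 fold changes of -5.16 and -5.11 in these comparisons, so the time label and the level of the targeted gene cannot be told apart. Every tested Hox gene had reads under both time labels. The Hox calls counted below include Hoxb9 and Hoxd10, which passed the filter on low counts only through the time label where they are high. Among 20 tested Hox genes, WT 2 h had 4 higher and 2 lower, and KO 2 h had 7 higher and 1 lower (edgeR quasi-likelihood test, Benjamini-Hochberg adjusted p below 0.05). Without the library labelled WT 0 h replicate 1 the WT count was 3 in place of 6. Over all 12807 tested genes, 61.2% were called among the WT labels (30.1% higher, 31.1% lower) and 61.1% among the KO labels (30% higher, 31.2% lower). Of tested genes with a mean level within the range of the Hox genes, 0.558 to 46.4 CPM, 56.6% and 56.0% were called, a range chosen after the data were seen. The median log2 fold change of the Hox genes was 0.26 in WT and 0.30 in KO, beside 0.01 and -0.01 over all genes. The median standard error was 0.20 and 0.21 for Hox genes against 0.12 and 0.12 for all genes, so a change of given size was harder to call in a Hox gene. For 14 of the 20 Hox genes in WT and 11 in KO the 95% interval of the change lay within 2-fold in either direction.

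Hoxc4, Hoxd9 and Hoxd10 were higher and Hoxb9 was lower at 2 h under both genotype labels. The 2 comparisons share no library, but filter, scaling and spread came from all 8 libraries in a single fit. They are thus not independent, and for Hoxb9 and Hoxd10 a difference was partly built in by the filter. Hoxa3 was called under the WT labels alone, and Hoxa2, Hoxa7 and Hoxd3 under the KO labels alone. The difference between the 2 responses was tested as an interaction and was called for none of these. In 9 of 20 Hox genes all 4 libraries labelled 2 h lay above all 4 labelled 0 h, where 29.7% of all tested genes did so. In 1 gene, Hoxb9, all 4 lay below (31.3% of all genes). The 9 genes include Hoxd10, so both counts hold a gene that passed the filter only through its high time label. Scaled by library size alone, under which the median log2 fold change of all genes was 0.15 in WT and 0.14 in KO, 10 Hox genes were higher and 1 lower in WT and 10 and 1 in KO. Under that scaling 4823 of all genes were higher and 3055 lower in WT, in place of 3853 and 3984, and 4834 and 3036 in KO, in place of 3838 and 3991.

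**Figure D2:**
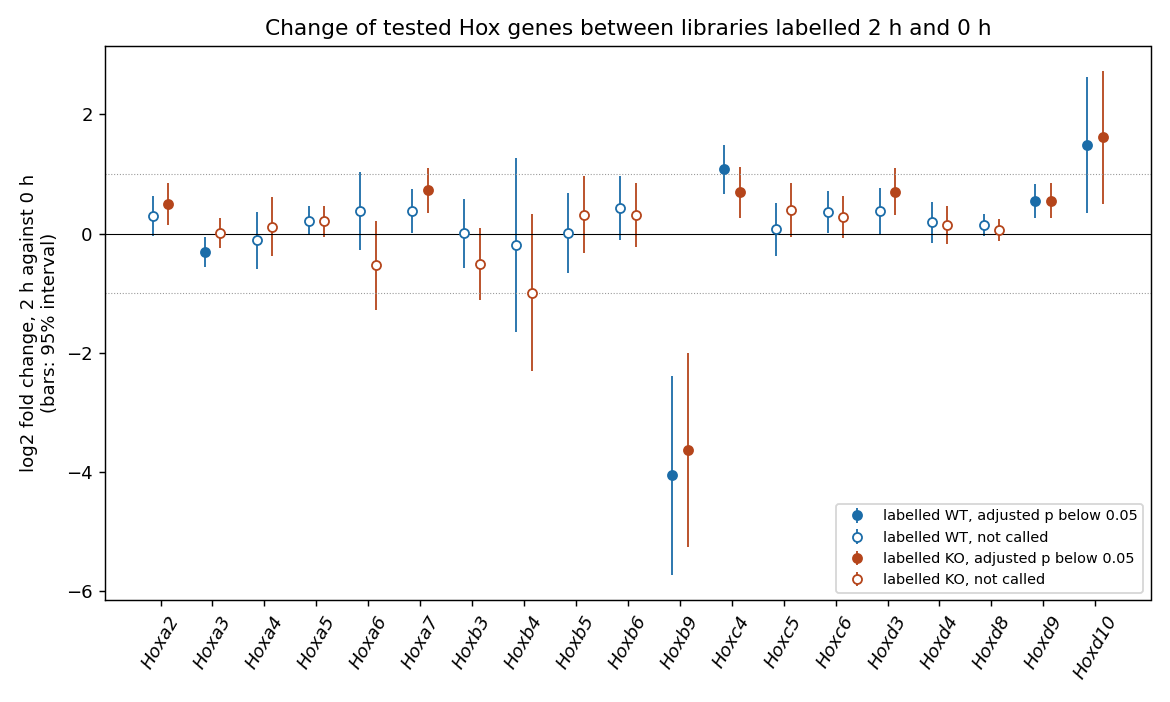
Log2 fold change of tested Hox genes (horizontal axis, by cluster and number) between libraries labelled 2 h and 0 h, with 95% intervals, in blue for the WT and red for the KO labels and filled where the adjusted p is below 0.05. Hoxb9 lies at -4.05 and -3.63 and Hoxd10 at 1.48 and 1.61, while the points of Hoxd8 lie at 0.15 and 0.06.

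Among the anterior genes, Hoxa2, which patterns the second branchial arch, stood at 8.84 and 9.09 CPM in WT 0 h, 8.72 and 6.82 in KO 0 h, 12.03 and 10.06 in WT 2 h and 10.99 and 11.07 in KO 2 h. All 4 libraries labelled 2 h lay above all 4 labelled 0 h. It was higher in KO (0.50, SE 0.17, edgeR adjusted p = 0.0146). That call was lost when KO 0 h replicate 2 was left out (0.34, edgeR adjusted p = 0.147). Its value in WT was 0.30 (SE 0.16, edgeR adjusted p = 0.113). Hoxa3, needed for the thymus and parathyroid, was at 21.8 and 22.3 CPM in WT 0 h and at 17.5 and 18.2 CPM in WT 2 h. It fell by 0.31 on the log2 scale (SE 0.12, edgeR adjusted p = 0.0340), a call lost under 8 of 15 alternatives (-0.17 to -0.33, edgeR or DESeq2 adjusted p 0.0533 to 0.255), among them each of the 6 that leave out a library of WT 0 h, WT 2 h or KO 2 h. In KO 0 h and KO 2 h it stood at 18.2 and 20.7 and at 18.7 and 20.5 CPM, which overlapped. Hoxd3 stood at 5.37 and 4.82 CPM in WT 0 h, 5.41 and 5.81 in KO 0 h, 6.75 and 6.45 in WT 2 h and 10.1 and 7.98 in KO 2 h. It was higher in KO (0.70, SE 0.19, edgeR adjusted p = 0.00296). Leaving out KO 2 h replicate 1 ended this call (0.54, edgeR adjusted p = 0.0609). Hoxb3 gave 0.01 (SE 0.28) in WT and -0.51 (SE 0.29) in KO, neither of which passed.

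Among the 12 central genes tested, Hoxc4 was called under both genotype labels and Hoxa7 in KO. Hoxc4, a gene of the neck and upper trunk, stood at 3.62 and 3.83 CPM in WT 0 h, 4.25 and 4.01 in KO 0 h, 8.53 and 7.23 in WT 2 h and 6.44 and 7.004 in KO 2 h. These levels did not overlap between the time labels, and Hoxc4 was 2.11-fold higher in WT (1.08, SE 0.20, edgeR adjusted p = 6.54e-05) and 1.62-fold higher in KO (0.69, SE 0.21, edgeR adjusted p = 0.00594). Its neighbours of the same cluster did not pass: Hoxc5 gave 0.07 (SE 0.21) and 0.39 (SE 0.22), and Hoxc6 gave 0.36 (SE 0.17) and 0.28 (SE 0.17). Hoxa7 stood at 7.38 and 8.30 CPM in WT 0 h, 7.89 and 5.61 in KO 0 h, 10.2 and 10.2 in WT 2 h and 10.4 and 12.3 in KO 2 h. It was higher in KO (0.72, SE 0.18, edgeR adjusted p = 0.00149), and its value in WT, 0.38 (SE 0.17), was called under 5 of 15 alternatives.

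Hoxd8 and Hoxa5, the most abundant central genes, did not pass the test. Hoxd8 stood at 42.4 and 41.4 CPM in WT 0 h, 48.7 and 46.6 in KO 0 h, 46.4 and 46.4 in WT 2 h and 49.1 and 50.2 in KO 2 h. Its change was 0.15 in WT (95% interval -0.04 to 0.34) and 0.06 in KO (-0.13 to 0.25); both intervals leave out a change of 2-fold. Hoxa5, which acts in the lung and the neck vertebrae, gave 0.22 (-0.03 to 0.46) and 0.20 (-0.05 to 0.46). The less abundant Hoxa4 did not pass either, with -0.11 (-0.59 to 0.36) and 0.12 (-0.38 to 0.61). Scaled by library size alone, Hoxd8 was called in WT (0.29) and Hoxa5 in both (0.36 and 0.35). Among the Hoxb genes, Hoxb5 gave 0.01 (SE 0.32) and 0.32 (SE 0.31) and Hoxb6 0.43 (SE 0.26) and 0.32 (SE 0.26), at levels of 1.87 to 4.11 CPM. Hoxb4, at 0.276 to 1.07 CPM, was too shallow for a 2-fold change to be placed, with an interval of -1.66 to 1.26 in WT.

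The tested posterior genes were Hoxb9, Hoxd9 and Hoxd10. Hoxb9 and Hoxd10 passed the filter on low counts only through the time label where they are high, so nothing is read from how many of these genes were called. A difference was thus partly built in, and the p-values of Hoxb9 and Hoxd10 are not read as support for one. Hoxb9, a gene of the thorax and the mammary gland, had 23 and 37 reads in WT 0 h, 14 and 33 in KO 0 h, 2 and 1 in WT 2 h and 2 and 2 in KO 2 h. Nearly all of its reads thus came from libraries labelled 0 h. Its level was 1.12 and 1.82 CPM in WT 0 h and 0.773 and 2.21 CPM in KO 0 h, against 0.0556 to 0.140 CPM in the 4 libraries labelled 2 h. The ratio of summed reads, scaled for depth, was 17.9 in WT (exact 95% counting interval 5.84 to 89.2) and 12.8 in KO (4.68 to 48.9). These intervals cover counting error alone, while replicates of a group differed by more than counting noise. The test called Hoxb9 lower in WT (edgeR adjusted p = 0.000150) and in KO (edgeR adjusted p = 0.000357). Over the 15 alternatives the log2 fold change was -4.53 to -3.66 in WT and -4.20 to -2.72 in KO.

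Hoxd9, which acts in the limb and lower spine, stood at 10.94 and 13.02 CPM in WT 0 h, 12.9 and 12.2 in KO 0 h, 16.3 and 18.7 in WT 2 h and 19.1 and 17.65 in KO 2 h. It was 1.46-fold higher in WT (0.54, SE 0.14, edgeR adjusted p = 0.00176) and 1.47-fold higher in KO (0.55, SE 0.14, edgeR adjusted p = 0.00178). The WT call was lost without the library labelled WT 0 h replicate 1 (0.41, edgeR adjusted p = 0.0622). Hoxd10, which lies next to it, had 8 and 7 reads in WT 0 h, 8 and 7 in KO 0 h, 18 and 20 in WT 2 h and 28 and 22 in KO 2 h. In CPM these are 0.391 and 0.344, 0.442 and 0.468, 0.971 and 1.11, and 1.29 and 1.54, with no overlap between the time labels. Hoxd10 was 2.80-fold higher in WT (1.48, SE 0.55, edgeR adjusted p = 0.0237) and 3.06-fold higher in KO (1.61, SE 0.54, edgeR adjusted p = 0.0125). The WT call was lost in DESeq2 (1.51, adjusted p = 0.0513) and without any one library of WT 0 h or WT 2 h (1.39 to 1.62, edgeR adjusted p 0.0658 to 0.152). The KO call was lost without KO 0 h replicate 1 (1.60, edgeR adjusted p = 0.0582) or KO 2 h replicate 2 (1.51, edgeR adjusted p = 0.0676).

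**Figure D3:**
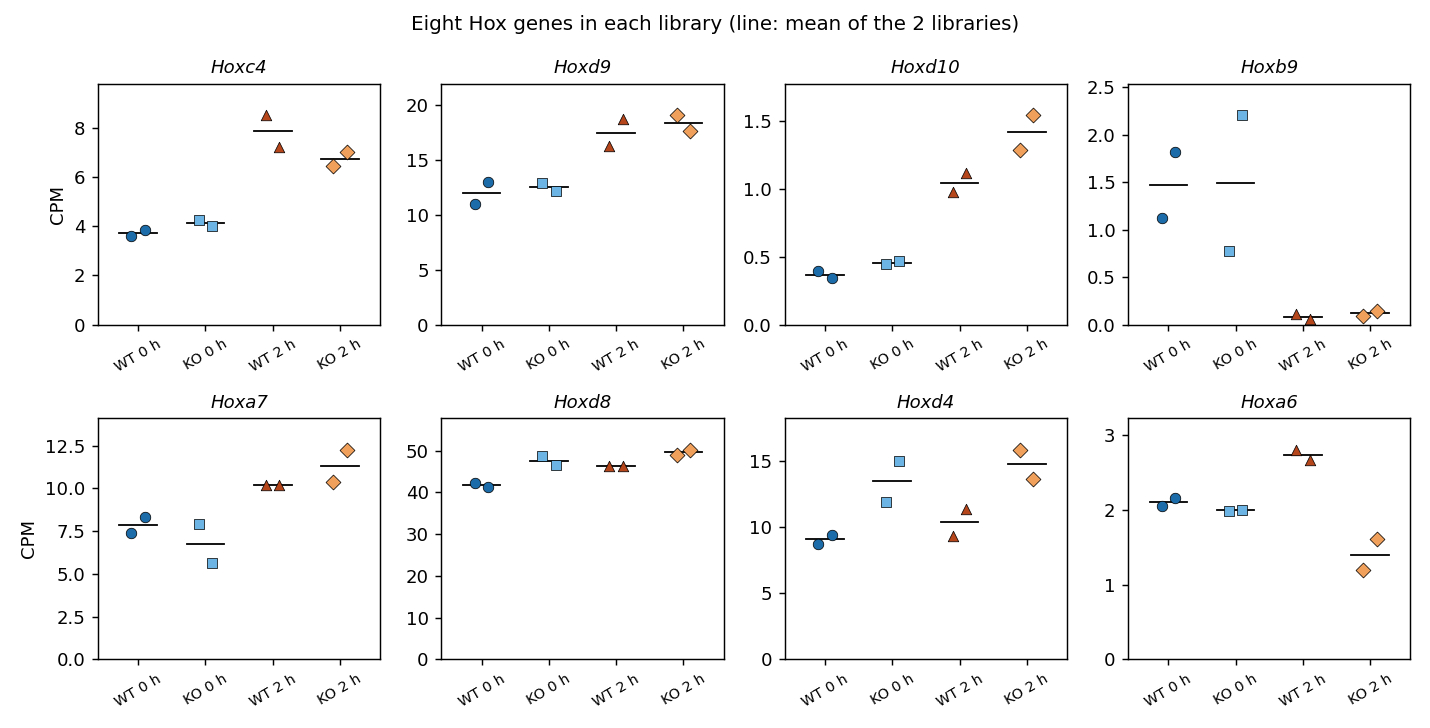
CPM (vertical axes from 0) of 8 Hox genes in the 2 libraries of each labelled group, with the group mean as a line. Hoxc4, Hoxd9, Hoxd10 and Hoxa7 are higher and Hoxb9 lower in the 4 libraries labelled 2 h, and Hoxd8 stays between 41.4 and 50.2 CPM. Each KO library lies above each WT library for Hoxd4 and for Hoxd8, and Hoxa6 is highest in WT 2 h and lowest in KO 2 h.

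The next comparisons set KO against WT labels at each time. No Hox gene was called at 0 h or at 2 h by edgeR or by DESeq2, where edgeR called 3.92% of all genes at 0 h and 1.6% at 2 h. At an unadjusted p under 0.05 edgeR counted 1 Hox gene at 0 h (Hoxd4) and 3 at 2 h (Hoxa6, Hoxd3 and Hoxd4). Of all 12807 tested genes, 2615 at 0 h and 665 at 2 h had an unadjusted p under 0.05. The 95% interval lay within 2-fold for 17 of 20 Hox genes at 0 h and for 15 at 2 h, and the median change was 0.10 and 0.11.

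Hoxd4 came closest to the threshold. It stood at 8.75 and 9.43 CPM in WT 0 h, 11.9 and 15.04 in KO 0 h, 9.34 and 11.4 in WT 2 h and 15.9 and 13.7 in KO 2 h. Each library labelled KO was thus above each labelled WT. Hoxd8 showed the same order, at 46.6 to 50.2 CPM under the KO and 41.4 to 46.4 CPM under the WT labels. The share of all tested genes with this order was not counted, so it is not read as support for a difference. Its difference was 0.56 at 0 h (SE 0.16, edgeR adjusted p = 0.0522) and 0.52 at 2 h (SE 0.16, edgeR adjusted p = 0.183). At 0 h it was called under 5 of 15 alternatives, over which the adjusted p ran from 0.0215 to 0.366. Hoxd3, which shares exon sequence with Hoxd4 in GENCODE, gave 0.14 (SE 0.20) at 0 h and 0.46 (SE 0.18, edgeR adjusted p = 0.603) at 2 h.

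The interaction asks whether the 2 h against 0 h change differed between the KO and WT labels. No Hox gene was called by edgeR or DESeq2, where edgeR called 0.133% of all genes. In edgeR 0 of 20 Hox genes had an unadjusted p under 0.05, where 1637 of all 12807 tested genes did. Hoxa6, a gene of the neck and thorax, had the largest value. It stood at 2.05 and 2.16 CPM in WT 0 h, 1.987 and 2.005 in KO 0 h, 2.81 and 2.67 in WT 2 h and 1.20 and 1.61 in KO 2 h. The libraries labelled 2 h lay above those labelled 0 h in WT and below them in KO. The interaction was -0.91 (SE 0.48, edgeR adjusted p = 0.439) and the difference between the genotype labels at 2 h was -0.99 (SE 0.34, edgeR adjusted p = 0.338), so neither passed. For 14 of 20 Hox genes the 95% interval of the interaction lay within 2-fold. The interval of Hoxd9 was -0.40 to 0.42, and that of Hoxb9, with few reads, was -2.44 to 3.29.

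Hox proteins bind DNA with cofactors of the TALE class, the Pbx, Meis and Pknox proteins, of which 8 of 9 were tested. In WT 2 h, 2 were higher and 3 lower, and in KO 2 h 4 were higher and 3 lower, where 61.2% and 61.1% of all genes were called. With library size alone the WT split was 4 and 3. Meis2 rose from 18.9 ± 0.146 to 35.3 ± 1.82 CPM between the WT labels (mean ± SD, n = 2 each) and by 0.83 on the log2 scale in KO. Pknox1 and Pknox2 fell, with log2 fold changes of -0.75 and -1.93 in WT and -0.53 and -2.56 in KO.

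Of 31 tested genes of the Polycomb complexes, 9 were higher and 7 lower in WT 2 h and 8 and 8 in KO 2 h, or 13 and 6 and 11 and 6 with library size alone. Over all genes 61.2% and 61.1% were called. Cbx7, a reader of the Polycomb mark, fell from 3.55 ± 0.118 to 0.276 ± 0.238 CPM in WT, with a log2 fold change of -3.4998 in KO, and Cbx6 fell in both (-1.16 and -0.995). Cbx7 had few reads in WT 2 h and was named for its large WT change, so the size of that change is uncertain. Ezh1, a methyltransferase that writes that mark, rose from 11.7 ± 1.13 to 26.4 ± 2.80 CPM in WT and by 1.42 in KO. Phf1, which joins the same complex, rose by 1.19 and 1.56.

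Of 15 tested trithorax and H3K27 demethylase genes, 5 were higher and 7 lower in WT 2 h and 4 and 7 in KO 2 h, or 6 and 3 and 6 and 5 with library size alone, beside 61.2% and 61.1% of all genes called. Kdm6b, a demethylase that removes the Polycomb mark, rose from 72.9 ± 7.64 to 161 ± 11.5 CPM in WT and by 1.53 in KO, while its relative Kdm6a fell in both (-0.93 and -0.98). Dot1l, a methyltransferase of transcribed genes, rose by 0.58 and 0.83, and Ash2l, a core subunit of the trithorax complexes, fell in both (-0.57 and -0.66). One gene of this list, Kmt2d, was not matched to a row by name and was not analysed here.

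Of the retinoic acid pathway 12 of 18 genes were tested, with 2 higher and 6 lower in WT 2 h and 5 and 5 in KO 2 h, and 3 and 5 in WT with library size alone. The background shares were again 61.2% and 61.1%. Aldh1a1, which makes retinoic acid, stood at 0.196 ± 0.0701 CPM in WT 0 h and rose to 16.4 ± 0.651 CPM in WT 2 h, and in KO it rose by 4.99 on the log2 scale (SE 0.27). Aldh1a1 had few reads in WT 0 h and was named for its large WT change, so the size of that change is uncertain. Cyp26b1, which degrades retinoic acid, fell from 29.96 ± 1.51 to 6.36 ± 1.14 CPM in WT, with a log2 fold change of -2.07 in KO. The receptor gene Rara rose by 0.905 and 1.296.

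Of 44 other positional transcription factors of mesenchyme, 21 were tested. In WT 2 h 1 was higher and 10 lower, or 3 and 8 with library size alone, and in KO 2 h 5 were higher and 7 lower, or 7 and 6. Of all genes 61.2% and 61.1% were called. Prrx2, a homeobox gene of limb and face mesenchyme, fell from 57.6 ± 1.21 to 15.8 ± 0.251 CPM in WT, with a log2 fold change of -1.76 in KO. Foxc1 fell in both (-0.82 and -1.22). Irx3, a homeobox gene of the early limb, was higher in both, at 1.26 (SE 0.24) and 0.69 (SE 0.25). The related Cdx, Gsx, Pdx and Evx genes had at most 5 reads each in a library, and none of the 8 was tested.

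Of the non-coding RNAs of the Hox clusters 10 were matched to rows, and 2 were tested. Hoxaas3 (listed as 2700086A05Rik) and Hoxd3os1 (listed as 1700109F18Rik) passed in none of the 5 comparisons. Hotair, which lies in the Hoxc cluster, had 1 to 6 reads per library.

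The 5 nearest tested genes on each side of each cluster were taken from the gene order in RefSeq, which gave 40 flanking genes. Of these, 10 were higher and 17 lower in WT 2 h and 10 and 16 in KO 2 h, beside 61.2% and 61.1% of all genes. With library size alone the splits were 10 and 10 and 10 and 11. Beyond the posterior end of the Hoxa cluster, Creb5, a transcription factor of the cyclic AMP response family, rose from 0.171 ± 0.103 to 6.57 ± 0.214 CPM in WT and by 4.58 in KO. Its neighbour Chn2, a Rac regulator, had 1 read in WT 0 h and stood at 1.16 ± 0.489 CPM in WT 2 h. Creb5 and Chn2 had few reads in WT 0 h and were named for their large WT change, so its size is uncertain. On the other side of the Hoxa cluster Snx10 rose by 1.38 and 0.98, and beside the Hoxc cluster Calcoco1 rose by 1.499 and 1.422.

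**Figure D4:**
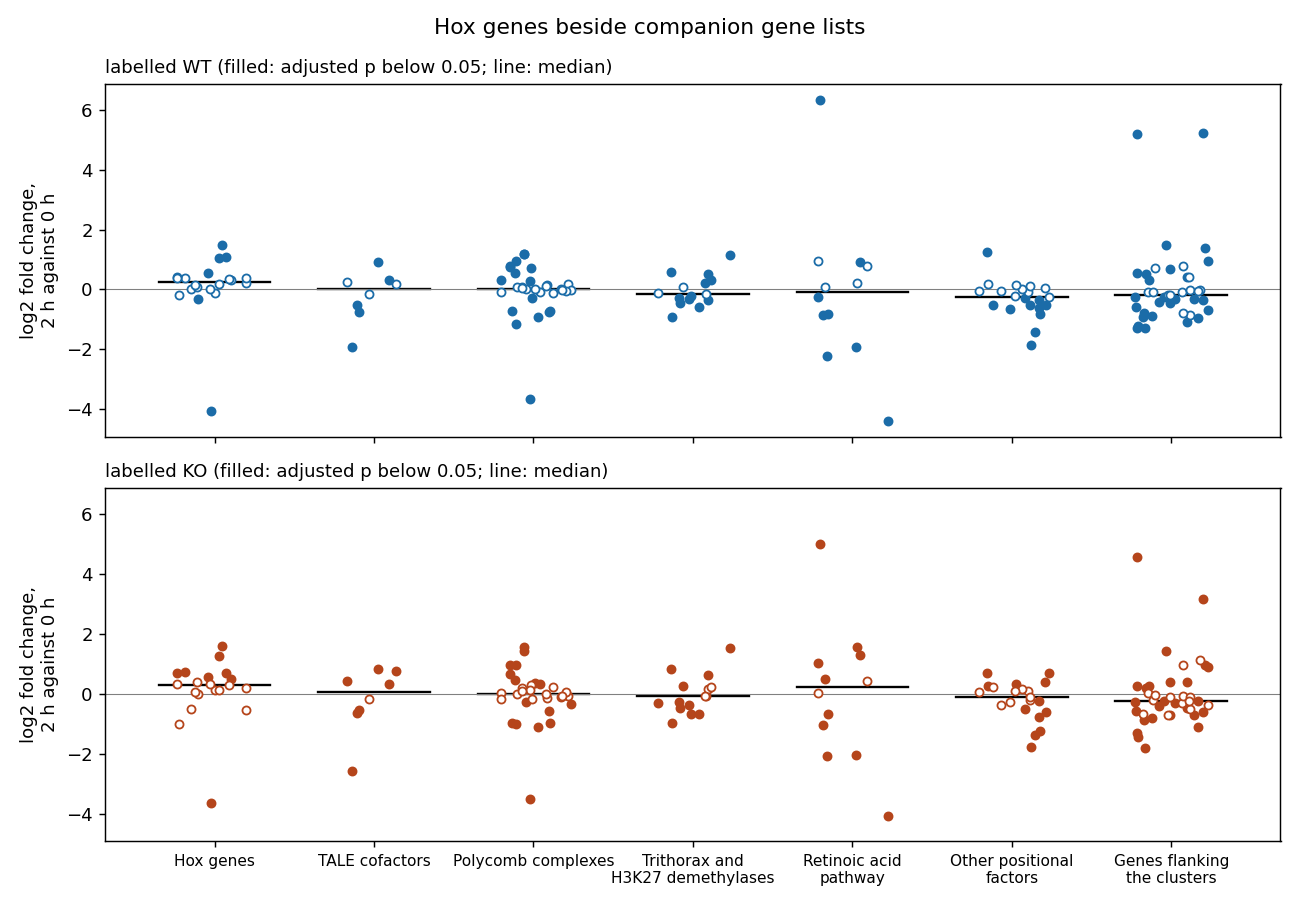
Log2 fold change between libraries labelled 2 h and 0 h for the tested Hox genes and 6 companion lists, one point per gene, filled where the adjusted p is below 0.05, with medians as lines, for the WT labels above and the KO labels below. The Hox genes have medians of 0.26 and 0.30, with 6 and 8 of 20 points filled, and their lowest point, Hoxb9, lies at -4.05 and -3.63.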

How the data were processed

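Total RNA was sequenced as paired ends, per the labels. The deposited values are whole-number counts of reads per gene symbol in 8 libraries, and their 4 summary lines (36.9 to 43.2% of reads) were left out. The submitters' processing notes name bcl2fastq 2.15, STAR 2.5.2b, HTSeq and mm9; which of them made the counts, and the annotation and strand option used, were not given in the sources used here. Counts were tested with edgeR 4.0.16 (quasi-likelihood, robust, TMM scaling, R 4.3.3) on all 8 libraries with 1 mean per group and 4 residual degrees of freedom. Genes passing a minimum count of 10 (total 15) were kept, 12807 in all, and p-values were Benjamini-Hochberg adjusted over all of them at 0.05. CPM were computed by edgeR on TMM-scaled library sizes. Replicates of a group differed by more than counting noise. The test was tried on simulated counts in which a small part of the genes was changed, in a single group. Between the time labels 61.2% and 61.1% of genes were called, and that setting was not simulated. Alternatives were RLE scaling, library size alone, DESeq2 1.42.0, other filters, 4 libraries only, a replicate block and leaving out each library. The members and lists were chosen with earlier results of these data known. Hox genes were named when any group mean reached 1 CPM, and up to 4 genes a list were named, those called in WT 2 h with the largest change at 1 CPM or more. Lengths and exon overlaps came from GENCODE M21, and gene order and promoters from RefSeq GRCm38.p6. Some genes that enter the counts are not reported here by name.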

Additional observations from a re-analysis of the deposited data

How the results depend on the processing

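The 20 tested Hox genes, with 95 fold changes and interactions of named genes, were recomputed under 15 alternatives. Of 1401 values 1362 kept their direction and side of the threshold, 18 lost their call, 21 gained one and 0 reversed. Scaling by library size alone gave 11 called Hox genes in WT 2 h against 0 h in place of 6. For KO against WT at 0 h, 1 Hox gene (Hoxd4) was called with no filter on low counts and 1 with only the 4 libraries compared. Leaving out each library in turn gave 3 to 7 Hox calls in WT, 7 to 8 in KO and 0 to 1 between genotype labels at 0 h; the cause was not tested. Over all genes, KO against WT at 0 h gave 502 calls, 809 with no filter and 174 to 1073 with a library left out (174 without WT 0 h replicate 1, 1073 without KO 0 h replicate 1). The interaction gave 17 calls, 33 in DESeq2, 113 with no filter and 6 to 91 with a library left out (91 without KO 0 h replicate 1). With a library left out its group has 1 sample, which is assumed to vary like the others. With replicate number as a block, 322 genes were called at 0 h between genotype labels, and the Hox counts were 6, 8, 0, 0 and 0, as without the block. Same-numbered libraries deviated from their group means with correlations of -0.0731 to 0.0130, which gave no sign of pairing by number. With 2 libraries a group such a check is weak, and a shared batch or culture was not tested. Depth limits Hoxb4, Hoxb9, Hoxd10 and the 19 untested genes most.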

Other observations

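The companion lists held 8, 31, 15, 12, 21, 2 and 40 tested genes, in the order above. Between the genotype labels at 0 h, 7 genes of these lists were called by edgeR, where 3.92% of all genes were. Whether 7 calls differ from that share was not tested, and the 7 genes are named here after their values were seen. With a library left out the count was 0 (without WT 0 h replicate 2) to 16 (without KO 0 h replicate 1), and with replicate number as a block it was 4, without Kdm6b, Mllt1 and 1 of the flanking genes. Snx10, which flanks the Hoxa cluster, was higher in KO 0 h (log2 fold change 0.74), as were Lnp beside the Hoxd cluster (0.35) and Psip1, a chromatin reader that binds trithorax proteins (0.37). Cbx2, a Polycomb subunit (-0.58), Kdm6b (-0.33), Mllt1 (-0.38) and Foxc2 (-0.40) were lower. At 2 h Foxf1, a forkhead factor of lung and gut mesenchyme, was higher in KO (0.77), and no other gene of the companion lists was called, where 1.6% of all genes were. The higher call in its list was lost without KO 2 h replicate 1 or without WT 2 h replicate 2. Without KO 2 h replicate 1, which leaves 1 library in that group, the list held a lower call instead.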
